A study of Arabidopsis thaliana with 43 samples.

Results

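The response of acclimated Arabidopsis thaliana leaves to a sudden heat shock was measured by comparing time point T7 with time point T6 in poly(A) RNA-seq counts. The libraries were taken by their time point labels and are 8 of the 43 libraries of the study, or 4 of its 22 plates. Leaves of T6 came from Col-0 seedlings on day 16, which had been heat-acclimated on day 12 and then kept at 22 °C for 4 days. Those of T7 came from Col-0 seedlings of the same age and with the same acclimation, taken at the end of 90 min at 45 °C. Acclimation, which both groups carry, was a slow rise from 22 to 45 °C over 6 h followed by 90 min at 45 °C. The most alike pair of groups was T9 and T10, Col-0 leaves of day 16 that were never acclimated, before and at the end of the same shock (8 libraries, 4 plates). Col-0 is the reference accession of Arabidopsis and carries no transgene here.

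A plate held about 80 seedlings, whose leaves were pooled and divided between 2 tubes. Plates, 1 from each batch at a time point, were therefore the replicates (n = 2), and the tubes were technical repeats that were summed. T6 was taken 7.5 h and T7 9 h after lights on, so heat and the later hour cannot be told apart. The description of the sampling in the labels gives the roles of T7 to T9 in acclimated plants in conflicting ways. The time point and sampling temperature labels, which make T7 a 45 °C sample and T6 a 22 °C sample, were followed.

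Plants sense heat through proteins that lose their fold. Heat stress transcription factors (HSFs) are then released from chaperones, bind heat shock elements in promoters and switch on genes of heat shock proteins (HSPs). The small HSPs hold unfolded proteins, the HSP100 disaggregases pull aggregates apart, and HSP70, HSP90 and their co-chaperones refold them. A mild or gradual heat treatment raises the later tolerance of a plant, which is called acclimation or acquired thermotolerance.

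The libraries of T6 and T7 held 8.14 to 14.04 × 10⁶ gene counts. Sister tubes of the 4 plates differed beyond sampling noise, at a chi-square per gene of 6.35 to 113. The batches differed in reads listed as not aligned, 7.51 to 12.9% in batch 1 and 0.177 to 0.266% in batch 2. One library stood apart. In T6 of batch 2 the log2 levels of the tubes correlated across genes with r = 0.900, against 0.980 to 0.991 in the other 3 plates. Tube 2 of that plate gave 14.1% of its counts to its 10 most abundant genes (5.83 to 6.28% in the other T6 libraries), and its level relative to tube 1 was lower in longer genes. The median log2 ratio of tube 2 to tube 1 was -0.07 in the shortest of 4 equal groups of genes and -1.27 in the longest. The T6 plates also differed in heat genes before the shock. The mRNA of HSFA2 stood at 48.3 and 23.4 CPM (counts scaled to library size) in the tubes of batch 2 against 0.944 and 1.43 in those of batch 1, so the higher level of batch 2 was in both of its tubes. What part these differences had in the results was not tested, and the main counts are given with and without tube 2.

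Levels below are TMM-CPM, library-size-scaled counts (CPM) after TMM scaling of plates, which corrects for a few very abundant genes taking up reads. A log2 change is the difference T7 minus T6 in 1 fit of edgeR's quasi-likelihood test over all 22 plates with a batch term. The ± gives its standard error, computed as the size of the change divided by the square root of the test's F value. The words rose and fell are kept for genes that passed, at a Benjamini-Hochberg adjusted p under 0.05 over all 20980 genes tested. Of these genes 1729 passed (8.24%), of which 936 rose (4.46%) and 793 fell (3.78%). The direction was the same in both batches for 99.5% of them. As the genes were picked by a fit to the same batches, this share is no separate check. Without tube 2 of T6 batch 2 the count was 2447 (1347 rose and 1100 fell), and 1606 genes passed both ways. Without the batch term, which pairs the plates of a batch, 570 passed. With 1 plate left out the count was 23 without T6 of batch 1, 197 without T6 of batch 2, 54 without T7 of batch 1 and 2160 without T7 of batch 2. Scaling by library size alone moved the median log2 change of all genes from -0.03 to -0.69 and the split from 936 up and 793 down to 326 up and 4046 down. In whole leaves, fewer cells of a type and less RNA per cell cannot be told apart.

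Genes were named only with a gene symbol and a mean of at least 10 TMM-CPM at T6 or T7. The named genes that rose most were headed by heat-inducible HSFs of class A. HSFA7A (AT3G51910) stood at 0.786 and 1.32 TMM-CPM in the T6 plates of batch 1 and 2 and at 342 and 154 in those of T7. Its plates did not overlap and its change was the largest of any gene eligible to be named, at 7.93 ± 0.85 on the log2 scale (edgeR, adjusted p = 0.000743). HSFA2, the factor that prolongs acquired thermotolerance, went from 0.72 and 29.3 to 2322 and 1012 TMM-CPM. Its levels at T6 differed between batches far more than those at T7, yet both T7 plates were above both T6 plates. The change was 7.06 ± 1.62 (edgeR, adjusted p = 0.0223). HSFA7B had no count in T6 of batch 1 and 0.828 TMM-CPM in batch 2, and it reached 61.9 and 11.1 TMM-CPM, a change of 6.21 ± 1.38 (edgeR, adjusted p = 0.0211).

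Of the 21 HSF genes listed, 18 were tested and 6 rose, none fell, and the median change was 0.22, so the family did not move as a whole. HSFA1E was the only member of the HSFA1 group, the factors known as the early regulators of the heat response, to pass. It went from 2.95 and 4.34 to 106 and 41.4 TMM-CPM (4.35 ± 0.70, edgeR, adjusted p = 0.00584), with both T7 plates above both T6 plates. It did not pass without T6 of batch 1 (edgeR, adjusted p = 0.0969) or without T7 of batch 1 (edgeR, adjusted p = 0.0659). HSFA1A, HSFA1B and HSFA1D had changes of -1.06, -0.01 and 0.10 and did not pass. HSFB2A and HSFB2B, class B factors without an activation domain, rose by 4.09 ± 0.70 and 4.11 ± 0.62. Under library size scaling the median of the family turned to -0.45, with 6 risen and 2 fallen members.

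Promoters are shown of the 6 named genes that rose most and of HSP21, a chloroplast small HSP that did not pass. They are shown because the heat shock element is where HSFs bind. The 250 bases before the annotated gene start were read from the TAIR10.1 genome (RefSeq), 5′ to 3′ on the gene's strand. Capitals mark heat shock elements of 2 inverted units, GAANNTTC or TTCNNGAA, and 2 of them that overlap by 1 unit make an element of 3 units. The genes are HSFA7A (chr3:19264891-19265140, plus strand), HSFA2 (chr2:11135374-11135623, plus), HSP101 (chr1:27940370-27940619, minus), HSFA7B (chr3:23398986-23399235, plus), DREB2A (chr5:1601955-1602204, plus), HSP70T-2 (chr2:13653946-13654195, minus) and HSP21 (chr4:13819972-13820221, minus).
HSFA7A: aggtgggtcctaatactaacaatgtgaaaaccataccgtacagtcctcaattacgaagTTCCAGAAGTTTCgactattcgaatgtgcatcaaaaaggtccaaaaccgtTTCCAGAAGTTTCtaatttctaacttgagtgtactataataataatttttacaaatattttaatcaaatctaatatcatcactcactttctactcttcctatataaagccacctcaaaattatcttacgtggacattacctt
HSFA2: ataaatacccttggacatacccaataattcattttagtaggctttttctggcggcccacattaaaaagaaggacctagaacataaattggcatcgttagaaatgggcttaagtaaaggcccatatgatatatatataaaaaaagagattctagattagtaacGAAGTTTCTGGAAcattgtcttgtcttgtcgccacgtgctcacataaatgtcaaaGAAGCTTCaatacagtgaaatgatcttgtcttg
HSFA7B: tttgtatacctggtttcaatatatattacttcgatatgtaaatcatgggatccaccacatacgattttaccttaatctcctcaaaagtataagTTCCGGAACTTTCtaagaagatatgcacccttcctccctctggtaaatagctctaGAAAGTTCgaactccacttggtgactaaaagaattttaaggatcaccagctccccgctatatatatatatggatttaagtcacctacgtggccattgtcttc
DREB2A: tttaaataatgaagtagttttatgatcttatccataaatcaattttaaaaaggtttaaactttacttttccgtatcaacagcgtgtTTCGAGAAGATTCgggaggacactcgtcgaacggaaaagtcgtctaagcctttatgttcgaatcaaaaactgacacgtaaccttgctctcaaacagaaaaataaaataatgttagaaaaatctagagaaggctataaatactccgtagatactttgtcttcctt
HSP21: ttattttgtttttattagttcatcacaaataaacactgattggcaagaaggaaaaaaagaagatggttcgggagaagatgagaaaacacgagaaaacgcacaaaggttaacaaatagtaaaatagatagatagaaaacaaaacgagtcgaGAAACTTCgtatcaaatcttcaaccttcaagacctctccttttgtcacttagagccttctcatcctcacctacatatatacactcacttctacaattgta
HSP101: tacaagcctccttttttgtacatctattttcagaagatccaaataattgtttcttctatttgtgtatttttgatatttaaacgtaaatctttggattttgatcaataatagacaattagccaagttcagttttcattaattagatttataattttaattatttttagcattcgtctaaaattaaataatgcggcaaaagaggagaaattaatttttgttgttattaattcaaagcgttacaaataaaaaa
HSP70T-2: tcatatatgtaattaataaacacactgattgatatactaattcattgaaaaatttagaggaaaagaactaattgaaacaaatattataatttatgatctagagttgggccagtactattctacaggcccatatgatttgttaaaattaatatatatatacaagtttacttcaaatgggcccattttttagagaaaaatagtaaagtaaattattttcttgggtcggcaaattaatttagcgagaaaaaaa

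HSFA7A held 4 elements of 2 units, which made up 2 elements of 3 units. HSFA2, HSFA7B and DREB2A each held 1 element of 3 units in the bases shown. HSP21 held 1 element of 2 units, and HSP101 and HSP70T-2 held none there. In the 50 bases after the start, which are not shown, HSP101, HSP21 and HSFA2 each held 1 element of 2 units. Over a window from 250 bases before to 50 after the start, an element of 3 units lay in 2.46% of the 852 risen genes with a window, in 0.129% of the 776 fallen genes and in 0.571% of all 20492 genes. The element of 2 units lay in 24.9%, 17.0% and 19.0% of them. The G-box CACGTG was in 12.0%, 6.96% and 8.82%, the dehydration-responsive element core (ACCGAC or GCCGAC) in 11.2%, 7.73% and 9.78%, and the evening element AAAATATCT in 3.52%, 3.09% and 3.07%. In the 250 bases before the start alone, the element of 3 units lay in 1.53% of risen, 0.129% of fallen and 0.439% of all genes. The element of 2 units lay there in 19.6%, 14.6% and 15.9%. All motifs were searched on both strands, and a match is a description of letters, not a site shown to be bound.

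**Figure D1:**
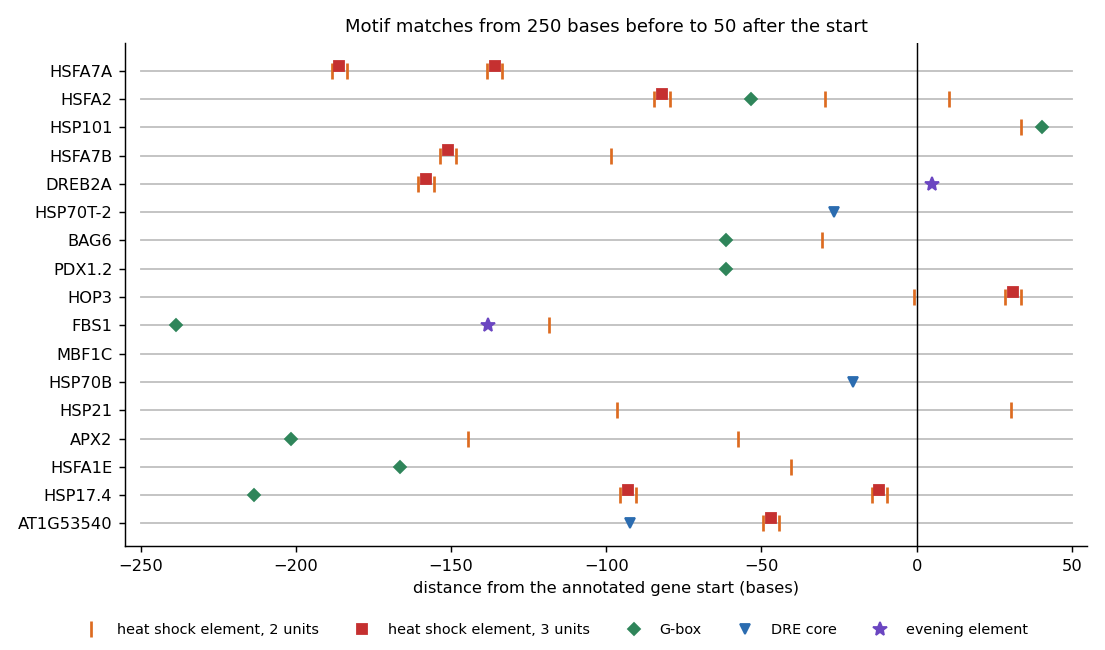
Motif matches by distance from the annotated gene start (bases, 250 before to 50 after), for the 12 named genes that rose most and 5 other heat genes. Each grey line is 1 gene; HSFA7A, HSFA2, HSFA7B, DREB2A, HSP17.4 and AT1G53540 hold an element of 3 units before the start, and MBF1C holds no match to any of the motifs.

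Other regulators of the heat response were split. DREB2A, an AP2-type factor of the drought and heat responses, stood at 2.23 and 14.4 TMM-CPM before the shock and at 814 and 331 after it. The T7 plates were both above the T6 plates, with a change of 6.11 ± 0.88 (edgeR, adjusted p = 0.00359). MBF1C, a transcriptional co-activator needed for heat tolerance, went from 7.30 and 45.2 to 2385 and 546 TMM-CPM (5.63 ± 1.19, edgeR, adjusted p = 0.016). The other 5 of 7 genes in this list, among them MBF1A and MBF1B with changes of 0.07 and -0.14, did not pass, and the list median was 0.07 (-0.57 under library size scaling).

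**Figure D2:**
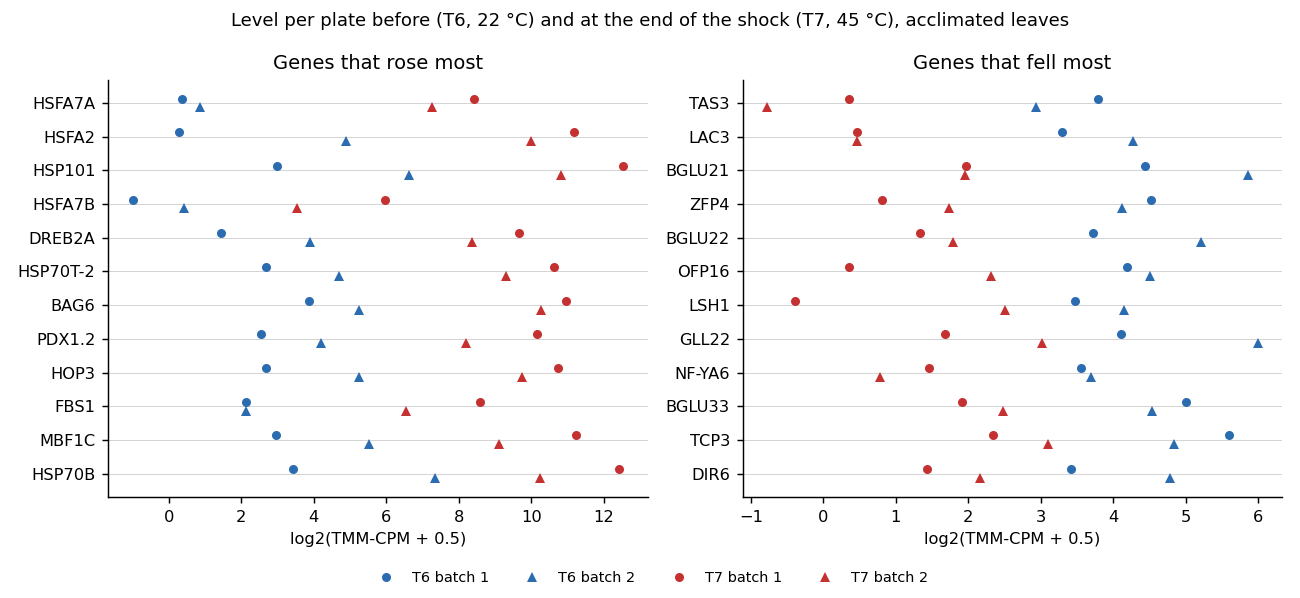
Levels per plate, as log2(TMM-CPM + 0.5), of the 12 named genes that rose most (left) and the 12 that fell most (right) in acclimated leaves. Blue is T6 and red T7, circles are batch 1 and triangles batch 2. HSFA2, HSP101 and HSP70B have their T6 plates far apart. The genes were chosen for large changes of the same sign in both batches. That no gene has overlapping T6 and T7 plates follows largely from this choice.

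Small HSPs were high after the shock, but many were already well above 0 before it. Of the 11 tested genes of cytosolic small HSPs 4 rose and 7 did not pass, with a median change of 4.39, against -0.03 over all genes. The summed level of the list was 130 and 1523 TMM-CPM in the T6 plates of batch 1 and 2 and 21394 and 5890 in those of T7. Within batch 1 the list median was 6.90 and within batch 2 it was 2.15. The risen members were AT1G59860 (6.23 ± 1.57), AT5G37670 (5.57 ± 0.87), AT1G54050 (5.49 ± 1.14) and HSP17.6A (5.14 ± 1.42). AT1G59860, AT5G37670 and AT1G54050 carry no gene symbol and so could not be among the 12 named genes that rose most.

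HSP18.2, a class I cytosolic small HSP, is the clearest case of a high start. It stood at 24.9 and 291 TMM-CPM at T6 and at 735 and 352 at T7. Batch 2 changed little between T6 and T7 while batch 1 went up, and the fitted change of 1.598 ± 0.98 did not pass (edgeR, adjusted p = 0.304). HSP17.4 behaved alike, with 14.4 and 261 TMM-CPM before the shock, 1571 and 510 after it and a change of 2.99 ± 1.27 (edgeR, adjusted p = 0.145). AT4G21870 had low levels, from 3.28 to 21.2 TMM-CPM over the 4 plates, with no order between T6 and T7.

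Among small HSPs of organelles and the endoplasmic reticulum (ER), 3 of 5 rose and the median change was 4.40. HSP22.0, the ER member, went from 14.1 and 91.5 to 2398 and 637 TMM-CPM (4.40 ± 1.18, edgeR, adjusted p = 0.0373). The other risen members were AT1G52560 (4.98 ± 1.40) and AT5G51440 (4.74 ± 1.19). HSP21, which protects photosystems in the chloroplast, went from 7.34 and 49.7 to 671 and 181 TMM-CPM. All T7 values of HSP21 were above those of T6, but its change of 3.36 ± 1.11 missed the threshold (edgeR, adjusted p = 0.0708), as did that of mitochondrial HSP23.6 (4.34 ± 1.70, edgeR, adjusted p = 0.117). HSP21 passed with DESeq2 (adjusted p = 0.0209) and in a fit of the 4 plates alone (edgeR, adjusted p = 0.000168). That fit has very few plates from which to estimate the spread, so its smaller p need not be stronger evidence. Beside these counts, T6 of batch 2 stands apart in the level of the whole class. In DESeq2 8 of the 11 cytosolic and 5 of the 5 organelle and ER genes passed. Without T6 of batch 1, 0 of either list passed. Without T6 of batch 2 it was 2 cytosolic and 1 organelle or ER gene, and without T7 of batch 1 it was 1 and 0.

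**Figure D3:**
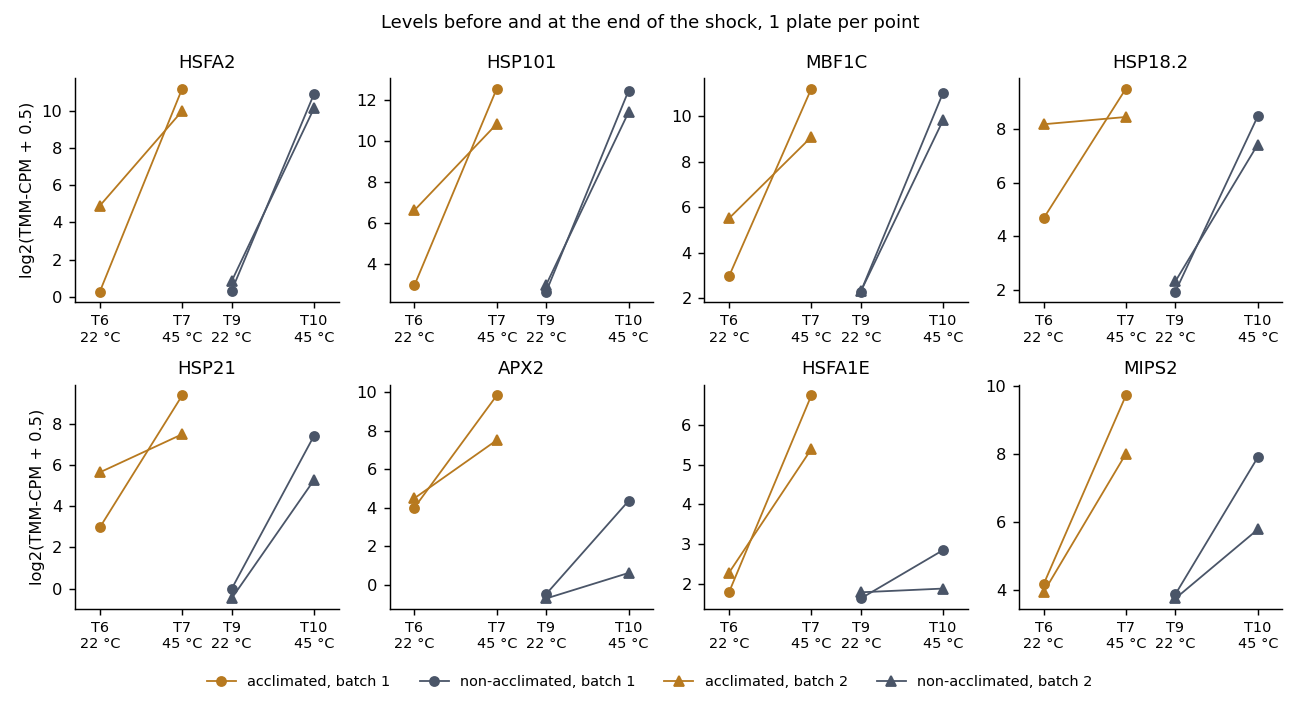
Levels before and at the end of the shock for 8 genes, as log2(TMM-CPM + 0.5), 1 plate per point and a line per batch; the vertical scale differs between panels. HSP18.2 of acclimated batch 2 starts at 291 TMM-CPM and ends at 352, whereas HSFA1E starts below 5 TMM-CPM in all 4 unheated plates and ends at 106 and 41.4 in acclimated leaves.

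All 4 genes in the list of disaggregases and HSA32 rose, with a median change of 3.53. HSP101, the cytosolic disaggregase required for acquired thermotolerance, went from 7.37 and 98.3 to 5961 and 1811 TMM-CPM. The shocked plates were both far above the unheated ones, and the change was 6.31 ± 1.45 (edgeR, adjusted p = 0.0223). Mitochondrial CLPB4 rose by 3.77 ± 0.86 and chloroplast CLPB3 by 2.97 ± 0.67. HSA32, known for keeping HSP101 protein levels up after heat, rose from 6.42 and 18.7 to 203 and 65.5 TMM-CPM (3.28 ± 0.91, edgeR, adjusted p = 0.0417). With T6 or T7 of batch 1 left out, 0 of these 4 genes passed.

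In the HSP90 family, chaperones of signalling proteins and receptors, 3 of 7 rose. The heat-inducible HSP90.1 went from 14.8 and 188 to 4519 and 1842 TMM-CPM (5.10 ± 1.36, edgeR, adjusted p = 0.0363). The cytosolic HSP90.2 and HSP90.3 rose by 4.29 ± 0.77 and 3.32 ± 0.57. Reads of HSP90.2, HSP90.3 and HSP90.4 may be split between these near-identical copies. The organelle members HSP90.5, HSP90.6 and HSP90.7 had changes of 0.67, 0.20 and 0.03 and did not pass.

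HSP70 genes outside the ER rose in 8 of 11 cases, with a median of 2.89. HSP70T-2 had the largest change (6.07 ± 1.11, edgeR, adjusted p = 0.00938), from 5.96 and 25.5 to 1581 and 625 TMM-CPM. HSP70 (AT3G12580), a heat-inducible cytosolic member, went from 57.4 and 312 to 9697 and 3204 TMM-CPM, a change of 5.16 ± 1.23 (edgeR, adjusted p = 0.0253). HSP70B rose by 5.28 ± 1.54 from 10.2 and 160 TMM-CPM, close to the threshold (edgeR, adjusted p = 0.0478). The mitochondrial pair was divided, with MTHSC70-2 at 4.52 ± 0.74 and MTHSC70-1 at 0.54 ± 0.38, which did not pass. Of the chloroplast pair CPHSC70-1 rose (1.75 ± 0.41) and CPHSC70-2 did not pass (0.58 ± 0.29). HSP70T-1 had almost no counts and is not described further.

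Co-chaperones rose in 7 of 9 cases, with a median of 2.72. BAG6, a calmodulin-binding co-chaperone, stood at 14.2 and 37.2 TMM-CPM before and at 1979 and 1230 after the shock (6.04 ± 0.80, edgeR, adjusted p = 0.00221). HOP3, which links HSP70 to HSP90, went from 5.90 and 37.3 to 1720 and 854.7 TMM-CPM (5.95 ± 1.15, edgeR, adjusted p = 0.011). Its relatives HOP1 and HOP2 changed by 0.71 and 0.80 and did not pass. FES1A, a partner of cytosolic HSP70, rose by 5.24 ± 1.11, the immunophilin ROF2 by 4.38 ± 1.12, and the DnaJ proteins J3 and J2 by 2.72 ± 0.48 and 2.24 ± 0.52. Without T6 of batch 1, 0 genes of the HSP90, HSP70 and co-chaperone lists passed. Without T7 of batch 1 it was 0, 0 and 1, and without T6 of batch 2 it was 2, 3 and 2.

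The list for the unfolded protein response of the ER had a median change of -0.21, unlike the lists of cytosolic chaperones. Of 18 genes 1 rose (5.56%, against 4.46% of all genes), 2 fell (11.1%, against 3.78%) and 15 did not pass. Without the batch term 1 rose and 1 fell, and the calls also depended on single plates. The DnaJ protein ERDJ3A went from 3.70 and 6.33 to 380 and 67.2 TMM-CPM (5.24 ± 1.04, edgeR, adjusted p = 0.0124). The calreticulin CRT1A, a calcium-binding chaperone of glycoproteins, fell from 169 and 273 to 56.4 and 79.4 TMM-CPM, by 1.69 ± 0.28 on the log2 scale (edgeR, adjusted p = 0.00697). The fall was seen in both batches, which is no separate check, as the gene passed a fit to the same batches. NAC103, a transcription factor of this response, also fell (-2.22 ± 0.59, edgeR, adjusted p = 0.0359), while the HSP70 proteins of the ER lumen, BIP1 and BIP2, had changes of 1.12 ± 0.46 and 0.09 ± 0.39 and did not pass. Library size scaling gave 7 fallen members in place of 2.

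Genes of osmoprotectant synthesis moved with the chaperones. In the list of galactinol, raffinose and myo-inositol synthesis 6 of 8 rose and the median was 2.53, with 2.34 in batch 1 and 2.27 in batch 2. MIPS2, an enzyme of myo-inositol synthesis, went from 17.62 and 14.9 to 852 and 259 TMM-CPM (5.06 ± 1.01, edgeR, adjusted p = 0.0133). The T6 plates were alike and both T7 plates were above them. MIPS1 rose by 2.20 ± 0.45 and MIPS3 by 1.48 ± 0.26. The galactinol synthases GOLS2 and GOLS3 rose by 3.42 ± 0.82 and 2.86 ± 0.78, and the raffinose synthase RS5 by 2.14 ± 0.55. GOLS1, a galactinol synthase under HSF control, went from 6.03 and 55.5 to 1332 and 304 TMM-CPM without passing (4.41 ± 1.44, edgeR, adjusted p = 0.0687). With any 1 of the plates T6 batch 1, T6 batch 2 or T7 batch 1 left out, 0 of the 8 passed.

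**Figure D4:**
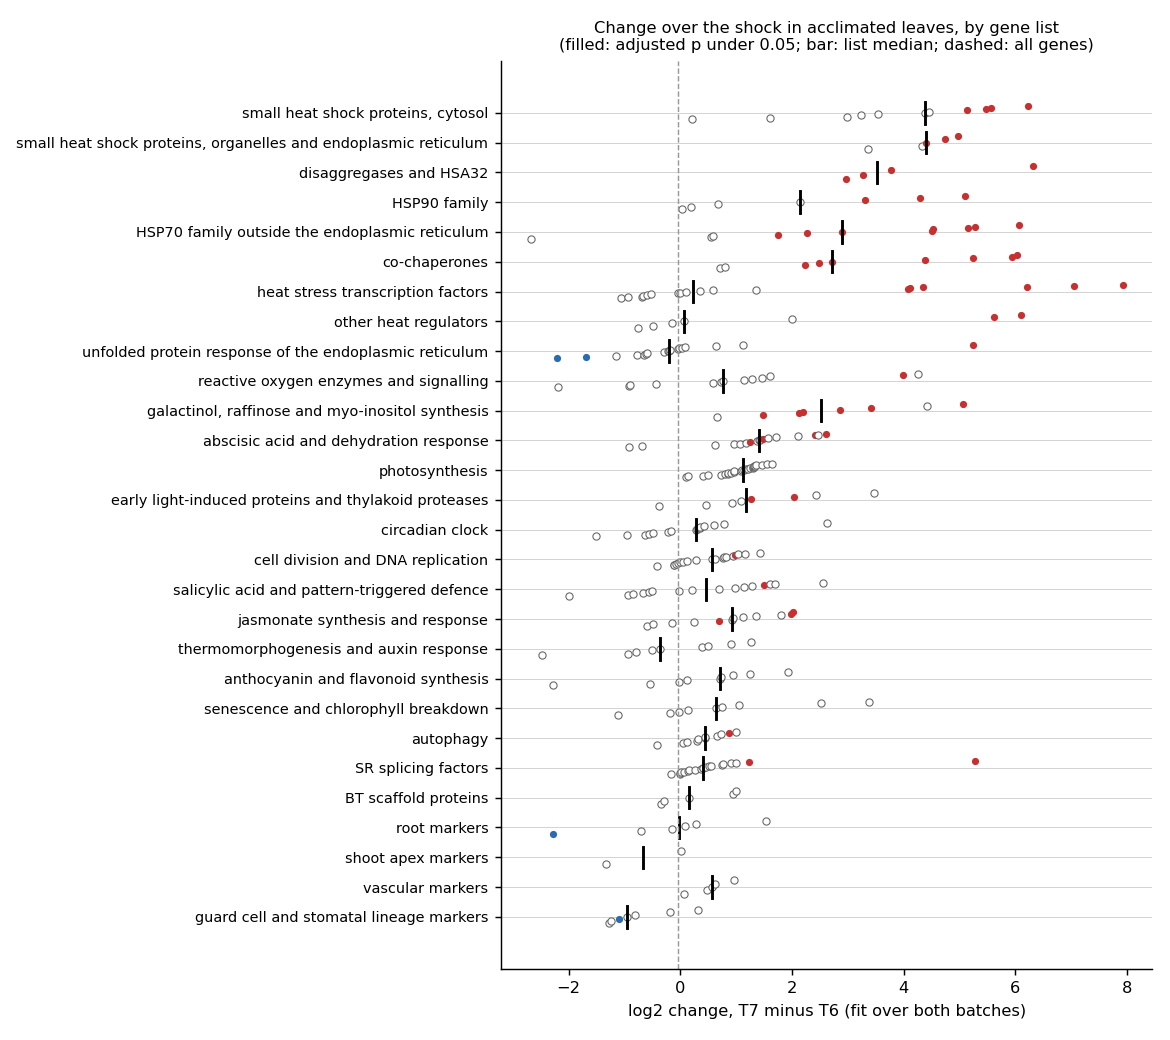
Log2 change T7 minus T6 of each tested gene in the 28 lists, 1 point per gene; filled points passed an adjusted p of 0.05 (red rose, blue fell), bars are list medians and the dashed line is the median of all genes tested (-0.03). The lists of small HSPs, disaggregases, HSP70, co-chaperones and galactinol, raffinose and myo-inositol synthesis lie farthest to the right, with medians from 2.53 to 4.40.

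Enzymes and signals of reactive oxygen were mostly without a call. Of 13 genes 1 rose (7.69%, against 4.46% of all genes), and the median was 0.77. The zinc finger factor ZAT12 went from 4.06 and 5.17 to 112 and 33.3 TMM-CPM (3.98 ± 0.88, edgeR, adjusted p = 0.0181). No gene of the list passed with T6 of batch 1, T6 of batch 2 or T7 of batch 1 left out. APX2, a heat-induced ascorbate peroxidase, went from 15.5 and 22.0 to 912 and 182 TMM-CPM. Although its T7 plates lay well above the T6 plates, the change of 4.25 ± 1.30 missed the threshold (edgeR, adjusted p = 0.0562) and passed with DESeq2 (adjusted p = 0.0136).

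Hormone lists held from 1 to 4 risen genes each. Of 17 abscisic acid and dehydration genes 4 rose (median 1.40): the dehydrin COR47 (1.48 ± 0.42), the phosphatases ABI2 (1.25 ± 0.35) and HAI2 (2.61 ± 0.75), and NCED3 (2.41 ± 0.71), the key enzyme of abscisic acid synthesis. In DESeq2 10 of the 17 passed, and none did under library size scaling or without the batch term. The calls in this list thus depended on the fit, and they also depended on each T6 and T7 plate. Of 12 jasmonate genes 3 rose (median 0.93), each an enzyme of jasmonate synthesis. LOX2 went from 794 and 1184 to 3136 and 4678 TMM-CPM (1.98 ± 0.45, edgeR, adjusted p = 0.0202), AOS rose by 2.02 ± 0.38 and OPR3 by 0.69 ± 0.20. The other 9 genes of the list did not pass, with changes from -0.59 (JAZ10) to 1.81 (VSP1). VSP2, a jasmonate-responsive storage protein, went from 88.1 and 290 to 141 and 941 TMM-CPM (1.36 ± 0.70, edgeR, adjusted p = 0.217), and the batches lay farther apart than the time points. In a fit of the compared plates alone 0 of the 12 passed, on the authors' log2 values 1 did, and 0 did with T6 of batch 1, T6 of batch 2 or T7 of batch 1 left out. In the salicylic acid and defence list 1 of 16 rose, the synthesis enzyme ICS1 (1.497 ± 0.30, edgeR, adjusted p = 0.0135). That is 6.25% of the list, near the 4.46% of all genes that rose. The list median was 0.45 and turned to -0.24 under library size scaling.

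Photosynthesis genes were checked as the mark of leaf mesophyll and held 0 risen and 0 fallen of 26, with a median of 1.13. Their summed level was 42559 and 90792 TMM-CPM in the T6 plates of batch 1 and 2 and 118283 and 135066 in those of T7. T6 of batch 1 was thus the lowest plate, and the median was 1.69 in batch 1 and 0.64 in batch 2. In DESeq2 6 of the genes passed, and 5 did without tube 2 of T6 batch 2, while the median turned to -0.04 on the authors' log2 values. Members of the LHCB, LHCA and RBCS families share sequence and their reads may be split. Of 8 early light-induced proteins and thylakoid proteases 2 rose (median 1.18), the FTSH proteases FTSH8 (2.04 ± 0.58) and FTSH1 (1.27 ± 0.35). None of the 8 passed under library size scaling or without the batch term, nor with T6 of batch 1, T6 of batch 2 or T7 of batch 1 left out. ELIP1, a chlorophyll-binding stress protein, was set by batch: it stood at 946 and 51.4 TMM-CPM at T6 and at 6318 and 87.1 at T7.

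SR proteins, which select splice sites, rose in 2 of 20 cases, with a median of 0.40 that turned to -0.26 under library size scaling. SR45A went from 30.7 and 32.0 to 2000 and 675 TMM-CPM (5.28 ± 0.68, edgeR, adjusted p = 0.00206), a change unlike those of the other 19, of which the next was SCL33 at 1.23 ± 0.35. Without tube 2 of T6 batch 2, 5 of the 20 rose. In the cell division and replication list 1 of 19 rose, MCM3 (0.99 ± 0.27, median of the list 0.56), and of 11 autophagy genes 1 rose, ATG8H (0.88 ± 0.24, median 0.43). Without tube 2 of T6 batch 2 these counts were 5 of 19 and 0 of 11, and both were 0 without the batch term. The 1 of 19 is 5.26%, near the 4.46% of all genes that rose, and the 1 of 11 is 9.09%. No member passed among 16 clock genes (median 0.29), 9 thermomorphogenesis and auxin genes (-0.36), 9 anthocyanin and flavonoid genes (0.72), 9 tested senescence genes (0.64) and 5 BT scaffold genes (0.15). Library size scaling turned the median negative for the lists of the clock, cell division, senescence, autophagy, BT and vascular genes.

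In no list of markers of other tissues did more than 1 gene pass. Of 6 root markers 1 fell, SCR, a factor of endodermis and bundle sheath, from 30.1 and 26.0 to 1.71 and 13.1 TMM-CPM (-2.29 ± 0.65, edgeR, adjusted p = 0.0433). Of 7 guard cell and stomatal lineage markers 1 fell, the receptor-like protein TMM (-1.09 ± 0.31, edgeR, adjusted p = 0.0453), and the median was -0.95. The 1 of 6 and 1 of 7 are 16.7% and 14.3%, against 3.78% of all genes that fell. TMM did not pass without tube 2 of T6 batch 2, without the batch term, in the compared plates alone, with no filter on low counts or on the authors' log2 values, nor with any 1 plate left out, and SCR did not pass without the batch term or without T6 of batch 1, T6 of batch 2 or T7 of batch 1. The summed level of the guard cell list was 54.8 and 44.0 TMM-CPM at T6 and 21.8 and 30.0 at T7, so the T7 plates were below the T6 plates. None of 5 vascular (median 0.58) and 2 tested shoot apex markers (median -0.66) passed. Reads from mitochondrial and plastid genomes were 0.0271 to 0.262% of gene counts in T6 and 0.515 to 0.876% in T7 libraries.

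Outside the lists 2 of the 12 named genes that rose most were found. PDX1.2, a pseudoenzyme that supports vitamin B6 synthesis under stress, went from 5.31 and 17.9 to 1148 and 295 TMM-CPM (6.03 ± 0.99, edgeR, adjusted p = 0.0061). FBS1, a stress-induced F-box protein, stood at 3.90 and 3.85 TMM-CPM in the T6 plates and at 382 and 92.0 in those of T7 (5.75 ± 0.98, edgeR, adjusted p = 0.0073). Unlike HSFA2 or HSP101, FBS1 had the same level before the shock in both batches.

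None of the 12 named genes that fell most is in a list. TAS3 (AT3G17185), a non-coding precursor of small RNAs that restrain auxin response factors, went from 13.3 and 7.12 to 0.779 and 0.084 TMM-CPM (-4.69 ± 0.84, edgeR, adjusted p = 0.00869). LAC3, a laccase, went from 9.33 and 18.8 to 0.883 and 0.882 TMM-CPM (-3.90 ± 0.68, edgeR, adjusted p = 0.00798). For both genes the T7 plates lay below the T6 plates, and TAS3 was close to 0 in T7 of batch 2.

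The zinc finger protein ZFP4 fell from 22.5 and 16.8 to 1.25 and 2.81 TMM-CPM (-3.28 ± 0.41, edgeR, adjusted p = 0.00194). OFP16 (-3.10 ± 0.60), LSH1 (-2.97 ± 0.69) and NF-YA6 (-2.84 ± 0.39) fell as well. TCP3, a factor of leaf shape and a target of a microRNA, went from 47.7 and 28.1 to 4.57 and 8.06 TMM-CPM (-2.55 ± 0.54, edgeR, adjusted p = 0.0156). Both T7 plates of TCP3 were below both T6 plates.

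The beta-glucosidases BGLU21 (-3.33 ± 0.62), BGLU22 (-3.19 ± 0.67) and BGLU33 (-2.61 ± 0.56) fell, as did GLL22 (-2.85 ± 0.65), a GDSL lipase-like protein, and the dirigent protein DIR6 (-2.51 ± 0.51). BGLU21 stood at 21.2 and 57.6 TMM-CPM at T6 and at 3.43 and 3.36 at T7. BGLU21 and BGLU22 are neighbouring, closely related copies whose reads may be split. All 24 named genes of the largest changes kept their direction in every alternative fit, and 20 passed without the batch term. The fits share plates and the genes were chosen for the same sign in both batches, so the kept direction is no separate check. With 1 plate left out, 4 passed without T6 of batch 1, 16 without T6 of batch 2, 5 without T7 of batch 1 and 22 without T7 of batch 2.

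Non-acclimated leaves were set beside these to ask where the responses differ. Over the same shock 1725 genes passed in them (8.22% of those tested), with 789 up and 936 down. The difference between the responses, (T7 minus T6) minus (T10 minus T9), passed in 0 of 20980 genes (0.0%) by edgeR's quasi-likelihood test, with 189 genes at an unadjusted p under 0.05. DESeq2 also called 0, with 200 at an unadjusted p under 0.05. If no gene differed, a share of about 0.05 of the 20980 genes would be expected at such a p. Both counts lie well below that share, so the p-values of this contrast ran larger than those of a test without any difference. The 0 calls therefore do not show that the responses were alike. The values that follow are differences not shown by the adjusted test. Their unadjusted 95% intervals use standard errors computed as above and a t distribution with 10 degrees of freedom.

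The lists of small HSPs had smaller changes in acclimated leaves. Cytosolic members had a median of 4.39 in acclimated and 8.79 in non-acclimated leaves, where 10 of 11 rose, and organelle and ER members had 4.40 and 8.89, where 5 of 5 rose. For HSP18.2 the difference in log2 change was -4.42 (interval -7.51 to -1.32) and for HSP21 it was -4.69 (-8.17 to -1.22). The batches differed in this, by changes taken within a batch from levels plus 0.5 TMM-CPM. In batch 1 the acclimated and non-acclimated changes were 4.86 and 6.56 for HSP18.2 and 6.42 and 7.44 for HSP21. In batch 2 they were 0.272 and 5.12 for HSP18.2 and 1.85 and 5.755 for HSP21. Their levels before the shock were lower in non-acclimated leaves, at 3.30 and 4.46 TMM-CPM for HSP18.2 and 0.488 and 0.216 for HSP21. At the end of the shock HSP21 stood at 171 and 38.2 TMM-CPM in non-acclimated leaves, below the 671 and 181 of acclimated leaves in the same batches.

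APX2 had a similar pattern of levels. In non-acclimated leaves it went from 0.214 and 0.108 to 19.9 and 1.03 TMM-CPM, so its end levels were below the starting levels of acclimated leaves in batch 2 and above them in batch 1. The difference in change was -1.29 with an interval of -5.40 to 2.81. For HSP101 it was -2.99 (-6.69 to 0.71), for HSFA2 -3.54 (-7.66 to 0.57) and for MBF1C -2.74 (-5.87 to 0.39), and these intervals include 0. Within batch 1 the acclimated and non-acclimated changes of these 3 genes were close, at 9.565 and 9.77, 10.9 and 10.6, and 8.26 and 8.75. Within batch 2 they were 4.20 and 8.39, 5.09 and 9.28, and 3.58 and 7.54. HSP101 ended at 5554 and 2689 TMM-CPM in non-acclimated leaves, both within the range of the acclimated values of 5961 and 1811.

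HSFA1E went the other way. In non-acclimated leaves it stood at 2.59 and 2.95 TMM-CPM before and at 6.70 and 3.18 after the shock and did not pass (0.84, edgeR, adjusted p = 0.416). The difference in change was 3.51, with an interval of 1.495 to 5.53 and an adjusted p of 1.0 in edgeR. HSFA7B had 0 counts in both unheated plates of non-acclimated leaves and 72.4 and 28.8 TMM-CPM at the end of the shock. The list of disaggregases and HSA32 had medians of 3.53 in acclimated and 5.12 in non-acclimated leaves, with 4 of 4 genes risen in each. The medians were 2.15 and 2.22 for HSP90, 2.89 and 2.80 for HSP70 and 2.72 and 2.98 for co-chaperones. Within these 3 lists HSP90.1 (5.10 and 8.54) and HSP70T-2 (6.07 and 8.80) had larger changes in non-acclimated leaves, and HSP90.2 (4.29 and 4.69) and HSC70-1 (2.27 and 2.34) had close ones.

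**Figure D5:**
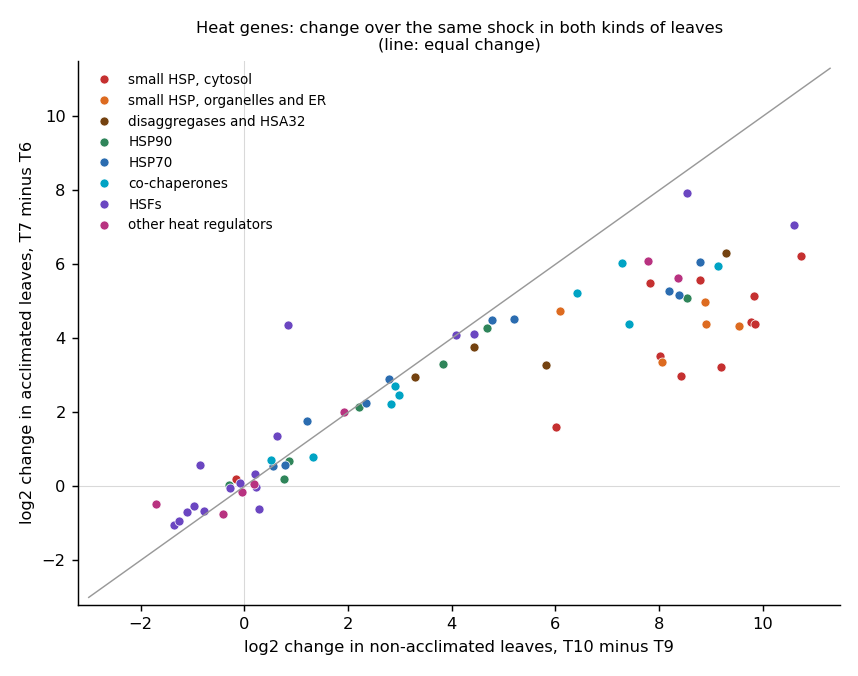
Log2 change over the shock in acclimated (vertical, T7 minus T6) against non-acclimated leaves (horizontal, T10 minus T9) for the tested genes of 8 heat lists, 1 point per gene; HSFA7B and HSP70T-1, at or near 0 counts at a time point, are left out. Small HSPs other than AT4G21870 lie below the line of equal change, and HSFA1E (0.84 and 4.35) lies above it.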

How the data were processed

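Leaf poly(A) RNA was sequenced from a stranded mRNA kit, per the labels' protocols. The authors deposited raw counts per locus for each library, for which the submitters' processing notes name TAIR10, HTSeq, SAMtools, Bowtie2 2.1.0.0 and TopHat2 2.0.14. Whether HTSeq used strand was not given in the sources used here. The authors also deposited a table of normalized log2 values for 18864 loci, used as an alternative; 1 of its columns has no sample and was not used. Each count file has 33602 loci and 5 summary lines (13.4 to 26.4% of the T6 and T7 reads were not assigned to a gene), which were left out. Tubes were summed per plate. Genes were kept by edgeR's filterByExpr (smallest count 10), and 20980 were tested in 22 plates with terms for time point and batch (edgeR 4.0.16 quasi-likelihood, TMM, R 4.3.3, Benjamini-Hochberg, threshold 0.05), which left 10 residual degrees of freedom. The batch named in the labels pairs plates, and the batch deviations of T6 and T7 correlated across genes with r = 0.248. DESeq2 1.42.0 and limma 3.58.1 served the alternatives, and the scripts were tested on simulated data. Named genes are the 12 with the largest change in each direction among genes that passed, moved the same way in both batches, carried a gene symbol and had a mean of at least 10 TMM-CPM at 1 time point, plus MBF1C, APX2, HSP18.2, HSP21, HSFA2 and HSP101. Members of the 28 lists were described by counts and medians. The members and lists were chosen with earlier results of these data known. Promoter windows run from 250 bases before to 50 after the gene start in the TAIR10.1 RefSeq annotation. Plates are pools of seedlings, nothing in the labels says more of how they were raised apart, and p-values measure only the spread between these plates.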

Additional observations from a re-analysis of the deposited data

Results flagged for a closer look

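In T6 of batch 2, tube 2 gave 14.1% of its gene counts to its 10 most abundant genes, far from the other 3 T6 libraries (5.83 to 6.28%). The same library had 18199 CPM (counts scaled to library size) at the ribosomal RNA locus AT2G01010, also far from the other T6 libraries (0.1 to 25.3 CPM). The locus was high in other libraries of batch 2 as well, at 7522 and 8485 CPM in the T7 tubes, 6289 to 10201 CPM in those of T3 and T4, 8313 CPM in 1 tube of T10 and 17860 CPM in 1 tube of T11. These are 2 flags over 8 measures in 2 groups of libraries, and chance flags about 1 in 20 groups.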

How the results depend on the processing

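The count of genes that passed between T7 and T6 was 1729. It was 4372 under library size scaling, 3356 with DESeq2, 1034 in a fit of the compared plates alone and 570 without the replicate block of batch. With 1 plate left out it ranged from 23 to 2160. For T10 against T9 it was 1725, and 4496, 3402, 593 and 600 under the same alternatives, with a range of 75 to 751 when 1 plate was left out. The cause was not tested, except that the fits without a plate rest on fewer samples, the lone plate being assumed to vary like the others. The difference between the responses gave 0 genes in every alternative run. Leaving out tube 2 of T6 batch 2, chosen after seeing the data, gave 2447. With 2 plates a time point, a p that misses the threshold does not show that levels were alike.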
